A study of Mus musculus with 16 samples.

Results

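Levels of 10 genes that encode subunits of ionotropic glutamate receptors were analyzed in UMI RNA-seq counts of E15.5 mouse cortex. The genes were selected by receptor family, as the AMPA receptor genes *Gria1*, *Gria2*, *Gria3* and *Gria4*, the NMDA receptor genes *Grin1*, *Grin2b* and *Grin3a*, and the kainate receptor genes *Grik1*, *Grik2* and *Grik3*. They are 10 of the 51912 genes listed in the count files, and 8 further receptor genes of the same superfamily are described beside them. The set was chosen with the differences between genotypes already known, so these differences are given as a description and not as independent evidence. Cortices came from 7 ctrl, 4 cKO and 4 dKO mice. All cKO mice were labelled hGFAP-Cre Casc5 conditional KO and all dKO mice hGFAP-Cre Casc5/Trp53 double conditional KO. *Casc5* is another name of *Knl1*, which encodes a kinetochore protein. Of the ctrl mice, 5 (2, 6, S1, S3 and T3) were labelled Casc5 wild type and 2 (T4 and T5) Casc5 heterozygous. The *hGFAP-Cre* transgene recombines in cortical neural progenitors, which give rise to excitatory neurons, whereas cortical interneurons migrate in from the ventral forebrain. The microdissected cortex holds both kinds of neuron, and in such bulk RNA fewer cells of a type and less RNA per cell cannot be told apart.

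Ionotropic glutamate receptors are cation channels, each built from 4 subunits, that open when glutamate binds. AMPA receptors carry the fast excitatory current, NMDA receptors admit calcium when the membrane is depolarized, and kainate receptors act both before and after the synapse. In the fetal cortex these genes are transcribed in neurons before most synapses have formed, and AMPA and NMDA receptors are known to influence migrating interneurons.

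The subunits of one family arose from a common ancestor and remain alike in coding sequence, most of all in the pore loop that lines the channel. The stretches below are shown because they hold the codon at which the AMPA and kainate subunits decide their calcium permeability, and because they show how close the family members are where reads could be confused. They were read from GENCODE transcripts of GRCm38 (mm10), and each has 21 bases on both sides of the codon, which stands in capitals. It is the first glutamine codon after the methionine of the pore loop.
*Gria1*, chr11:57243073-57243117, plus strand: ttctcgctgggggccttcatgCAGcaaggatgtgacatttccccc
*Gria2*, chr3:80706890-80706934, minus strand: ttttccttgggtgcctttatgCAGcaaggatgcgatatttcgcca
*Gria3*, chrX:41610244-41610288, plus strand: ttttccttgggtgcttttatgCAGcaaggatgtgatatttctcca
*Gria4*, chr9:4464116-4464160, minus strand: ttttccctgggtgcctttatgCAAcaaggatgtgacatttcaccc
*Grik1*, chr16:87936099-87940565, minus strand, across an intron: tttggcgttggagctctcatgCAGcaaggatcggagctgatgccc
*Grik2*, chr10:49240780-49244352, minus strand, across an intron: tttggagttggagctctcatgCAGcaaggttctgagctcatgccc
*Grik3*, chr4:125691186-125693978, plus strand, across an intron: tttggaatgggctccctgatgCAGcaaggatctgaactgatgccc

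In these stretches *Gria2* and *Gria3* were identical at 42 of 45 bases and *Grik1* and *Grik2* at 41 of 45, whereas *Gria2* and *Grik2* shared 27 of 45. All of these codons read glutamine in the genome. In *Gria2*, *Grik1* and *Grik2* RNA the codon is known to be edited so that it reads arginine, which lowers calcium entry. The deposited counts hold no base calls, so editing was not measured here. Over the full annotated transcripts, between 0% (*Grin1* and *Grin3a*) and 0.863% (*Gria4*) of the distinct stretches of 30 bases of a gene also occurred in another of the 18 receptor genes. Reads that could belong to a second subunit gene were therefore a small part of what these transcripts can give.

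The 10 genes lie on 9 chromosomes. *Gria1* spans 318858 bases of chromosome 11 (57011387 to 57330244), of which 1.90% are annotated as exon. *Grik2* is the longest of them at 693934 bases and *Grin1* the shortest at 28007 bases, of which 34.6% are exon. The counts cover whole gene spans on the gene's own strand. Of 114 protein-coding genes that lie inside another expressed protein-coding gene on the same strand, 114 had no count, against 52 of 308 on the opposite strand. Levels therefore include unspliced RNA, and genes are compared with each other as CPM per kb of gene span. CPM are counts scaled to 1000000 for each mouse with a TMM adjustment. Other annotated genes on the same strand covered between 0% and 2.47% (*Grik2*) of the members' spans, and the antisense and opposite-strand genes within *Grin1* and *Grin2b* had between 0 and 40 counts over all mice.

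Depth ranged from 399832 to 3266227 counts per ctrl mouse, from 4178461 to 8800987 per cKO mouse and from 552186 to 5396803 per dKO mouse. Every ctrl mouse was thus shallower than every cKO mouse, so depth and genotype cannot be told apart in cKO versus ctrl. Every member was detected in every mouse, with at least 14 counts (*Grin1* and *Grin3a*), and CPM values of these lowly expressed genes were the least precise in the shallow ctrl mice. The deleted genes do not mark the genotype in these counts. *Knl1* was at 62.8 ± 13.5 CPM (SD, n = 7) in ctrl, 58.2 ± 14.8 (n = 4) in cKO and 49.8 ± 11.6 (n = 4) in dKO. *Trp53* was at 30.5 ± 10.6, 28.3 ± 4.26 and 25.1 ± 5.26 CPM. Both genes had an edgeR FDR of 1 in each of the 3 comparisons. cKO mouse S2 was read in a pair of libraries whose counts were summed. It was the lowest of the cKO mice in 8 of the 10 genes and, at 8800987 counts, the deepest of all mice.

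In ctrl cortex the level per length differed widely between subunits. *Gria2*, whose edited subunit makes AMPA receptors impermeable to calcium, was the highest at 6.61 ± 0.931 CPM per kb (SD, n = 7), and its 7 values lay above those of every other receptor gene. *Grik3*, *Grin2b*, *Grik2* and *Gria1* followed at 2.58, 2.37, 2.05 and 1.95 CPM per kb. The ranges of each neighboring pair in this order overlapped, so these 4 genes were not ordered beyond the spread between mice. *Grik5*, a kainate subunit outside the set, lay with them at 2.59 CPM per kb. *Grin1*, the obligatory NMDA subunit, was at 1.17 ± 0.261 CPM per kb and overlapped *Gria4* at 1.01 ± 0.139. *Gria3* (0.559 ± 0.0742) and *Grik1* (0.455 ± 0.0568) lay lower and overlapped *Grid1*, which ranked between them. *Grin3a*, an NMDA subunit that lowers calcium entry, was the lowest of the 10 at 0.210 ± 0.0622 CPM per kb. The NMDA subunits known to dominate later were lower still, with *Grin2a* at 0.131 ± 0.0451 CPM per kb. *Grin2c* and *Grin3b* had 26 and 10 counts over all 15 mice. The order rests on dividing by the gene span. Divided by total exon length, *Grik2* (107 CPM per kb of exon) and *Gria1* (103) led in ctrl, and *Gria2* (51.6) came after *Grik3* (64.2) and *Gria4* (60.4). *Grin1* (3.37) then lay far below *Gria4* and close to *Grin3a* (3.148). Divided by the longest transcript, *Grik2* (151) and *Gria1* (112) led again, and *Gria2* (77.3) ranked above *Gria4* (69.9) and *Grik3* (64.2). *Grin1* (7.645) again lay far below *Gria4*.

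**Figure D1:**
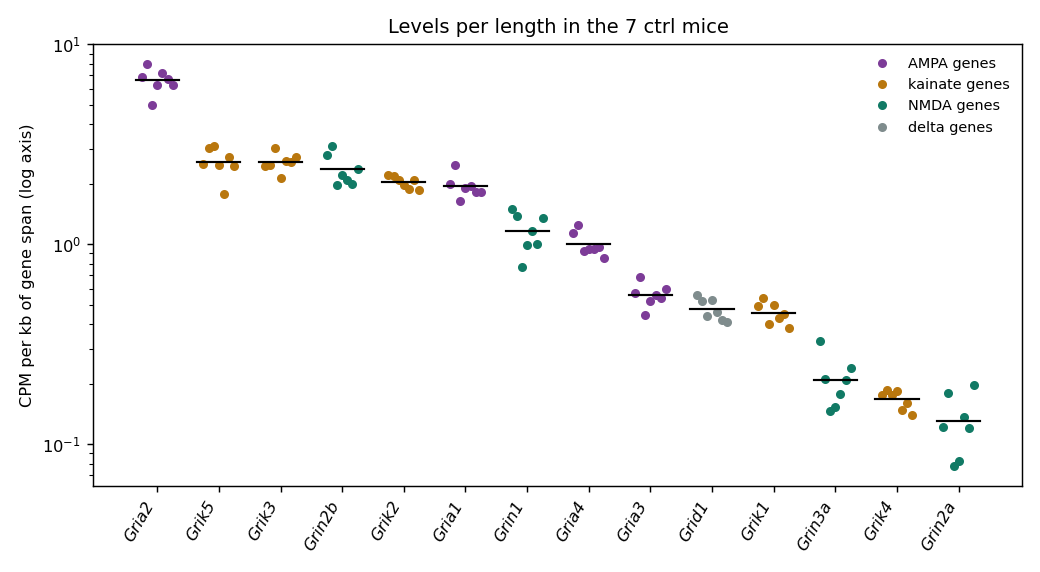
Levels of ionotropic glutamate receptor genes in the 7 ctrl mice, as CPM per kb of gene span on a log axis, with 1 point a mouse and a line at the mean. *Gria2* stands above all others, *Grik5* to *Gria1* overlap, and *Grin2d*, *Grin2c* and *Grin3b* are left out because at least 1 ctrl mouse had no count.

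The comparison of cKO with ctrl asks what loss of *Knl1* in progenitors changes, and the dKO mice ask which part of it needs *Trp53*. Of the AMPA genes, *Gria1*, the subunit best known from activity-dependent receptor insertion, differed the most. In cKO mice 5, 7, S2 and F3 it was at 1116, 992, 629 and 1027 CPM. In ctrl it ran from 522 to 793 CPM with a median of 612. Of the cKO mice, 3 lay above every ctrl mouse, and S2 lay within the ctrl range. dKO mice T2, T8, F1 and F7 were at 632, 553, 778 and 913 CPM, of which F7 was above every ctrl mouse. The fitted cKO level was 1.49-fold that of ctrl (95% interval 1.22 to 1.82, log2 fold change 0.58, standard error 0.15, edgeR FDR of 0.0470). The dKO level was 1.16-fold that of ctrl (0.957 to 1.42, FDR of 1).

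*Gria4*, an AMPA subunit prominent in interneurons and in the immature brain, followed the same order of groups. Its levels were 673, 553, 431 and 549 CPM in cKO mice 5, 7, S2 and F3. ctrl mice ran from 325 to 474 CPM with a median of 357. Again 3 cKO mice lay above all ctrl mice and S2 lay among them. dKO mice T2, T8, F1 and F7 were at 332, 424, 376 and 500 CPM, the last above the ctrl range. The fitted log2 fold change was 0.51 (standard error 0.13, edgeR FDR of 0.0623) in cKO and 0.11 (0.14, FDR of 1) in dKO, each versus ctrl.

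*Gria3*, the X-linked AMPA subunit gene, was the member that lay lowest in dKO relative to ctrl. It was at 198, 223, 168 and 212 CPM in cKO mice 5, 7, S2 and F3, and from 123 to 190 CPM with a median of 154 in ctrl. All cKO mice but S2 exceeded every ctrl mouse. dKO mice T2, T8, F1 and F7 were at 101, 118, 132 and 175 CPM, so that T2 and T8 fell below the whole ctrl range. The log2 fold change was 0.35 (standard error 0.13, edgeR FDR of 0.514) for cKO versus ctrl and −0.19 (0.15, FDR of 1) for dKO versus ctrl. For cKO versus dKO it was 0.59 (0.17, FDR of 0.252), the largest of the 10 genes in that comparison. *Gria2* differed little, at 1003, 938, 740.5 and 1071 CPM in cKO, 604 to 968 with a median of 816 in ctrl, and 711, 675, 803 and 974 in dKO. Its log2 fold changes versus ctrl were 0.21 (standard error 0.14) in cKO and −0.01 (0.14) in dKO, both at an edgeR FDR of 1.

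Of the NMDA genes, *Grin2b*, the glutamate-binding subunit that prevails before birth, was at 1638, 1559, 1039 and 1579 CPM in cKO mice 5, 7, S2 and F3. In ctrl it ran from 907 to 1434 CPM with a median of 1026. The cKO mice other than S2 exceeded all ctrl mice. dKO mice T2, T8, F1 and F7 were at 991, 976, 1240 and 1572 CPM, with F7 again above the ctrl range. The cKO level was 1.32-fold that of ctrl (95% interval 1.07 to 1.62, edgeR FDR of 0.566). *Grin1* was at 48.6, 42.3, 27.6 and 41.6 CPM in cKO and 21.5 to 42.0 in ctrl, and *Grin3a* at 50.8, 39.5, 31.9 and 64.8 in cKO and 27.1 to 60.5 in ctrl. Both overlapped broadly between groups, with log2 fold changes of 0.31 (standard error 0.19) and 0.30 (0.21) for cKO versus ctrl. In dKO they ran from 24.9 to 44.8 CPM (*Grin1*) and from 31.4 to 54.5 CPM (*Grin3a*).

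**Figure D2:**
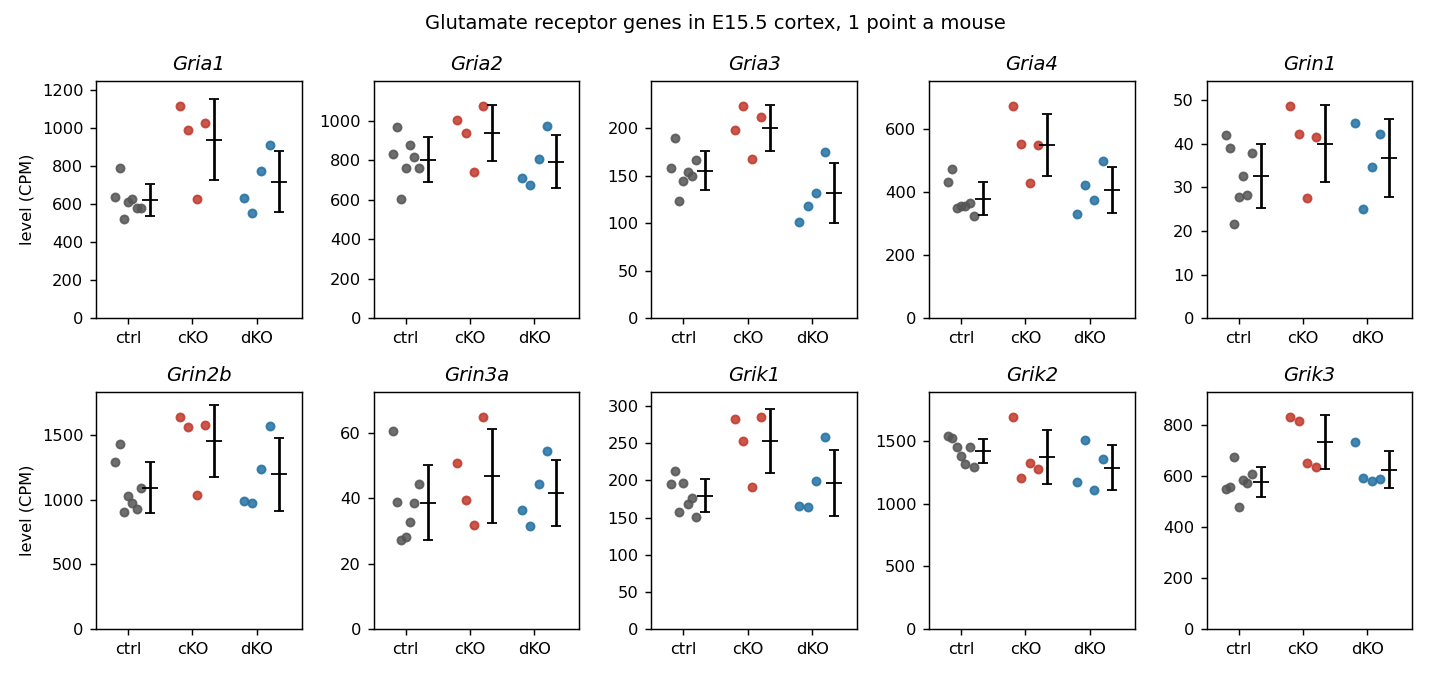
Levels of the 10 receptor genes in CPM on linear axes that start at 0, with 1 point a mouse in ctrl (n = 7), cKO (n = 4) and dKO (n = 4), and the mean ± SD beside each group. In *Gria1*, *Gria3*, *Gria4*, *Grin2b* and *Grik1*, 3 cKO mice lie above all ctrl mice and 1, S2, lies among them, while *Grik2* shows no such pattern.

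Of the kainate genes, *Grik1*, a subunit prominent in interneurons, was at 283, 253, 191 and 285 CPM in cKO mice 5, 7, S2 and F3 and from 151 to 212 CPM in ctrl with a median of 177. S2 was again the only cKO mouse inside the ctrl range. dKO mice T2, T8, F1 and F7 were at 166, 164, 199 and 258 CPM. The cKO level was 1.38-fold that of ctrl (95% interval 1.15 to 1.65, edgeR FDR of 0.139). *Grik3* was at 831, 817, 652 and 635 CPM in cKO and from 479 to 674 in ctrl, so that here mice 5 and 7 were above the ctrl range and both S2 and F3 within it. In dKO it was at 582 to 733 CPM, T2 alone lying above the ctrl range. Between cKO and ctrl its fitted log2 difference was 0.33, with an error (SE) of 0.13 and an edgeR FDR of 0.566. *Grik2*, which encodes the most widely expressed kainate subunit of the forebrain, did not follow the others. It was at 1691, 1208, 1321 and 1279 CPM in cKO, from 1296 to 1539 in ctrl with a median of 1449, and at 1175, 1508, 1112 and 1357 in dKO. cKO mouse 5 had the highest value of all 15 mice, and cKO mice 7 and F3 lay below every ctrl mouse. The fitted log2 fold change of *Grik2* in cKO over ctrl was −0.07 (standard error 0.12, edgeR FDR of 1).

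With edgeR likelihood ratio tests over all listed genes, 1 of the 10 receptor genes, *Gria1*, passed an FDR threshold of 0.05 between cKO and ctrl, where 0.160% of all 51912 genes were called. In dKO versus ctrl 0 were called, against 0.0501% of all genes, and in cKO versus dKO 0, against 0.0520%. Because these contrasts were known when the genes were chosen, nothing is read from the counts. At an unadjusted p below 0.05 the numbers were 6, 0 and 3 of 10, against 10.5%, 6.05% and 5.18% of the 14328 genes with an average of at least 1 CPM and 24.1%, 7.01% and 8.14% of the 2297 protein-coding ones among them that span at least 100 kb. The median log2 fold change of the 10 genes was 0.34 in cKO versus ctrl, 0.13 in dKO versus ctrl and 0.28 in cKO versus dKO. The medians of these 14328 genes were 0.03, 0.02 and 0.03. Of the 10, 9, 7 and 10 genes had a log2 fold change above 0. The shares above 0 were 55.4%, 54.4% and 56.5% of the 14328 genes. Of the 2297 long protein-coding ones they were 61.1%, 48.6% and 73.3%. The comparisons share mice, cKO and dKO versus ctrl the ctrl mice, so that their values are not independent of each other. Long genes as a class were slightly higher in cKO as well. The median for cKO versus ctrl was 0.06 over the same 2297 genes and 0.03 over the 10450 shorter ones, and for cKO versus dKO it was 0.12 and 0.02. The part of gene length in the receptor values was not tested. In no member did all cKO mice lie above all ctrl mice, whereas 0.845% of the 14328 genes separated in this way. The share of all genes with every cKO mouse but 1 above all ctrl mice was not determined.

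**Figure D3:**
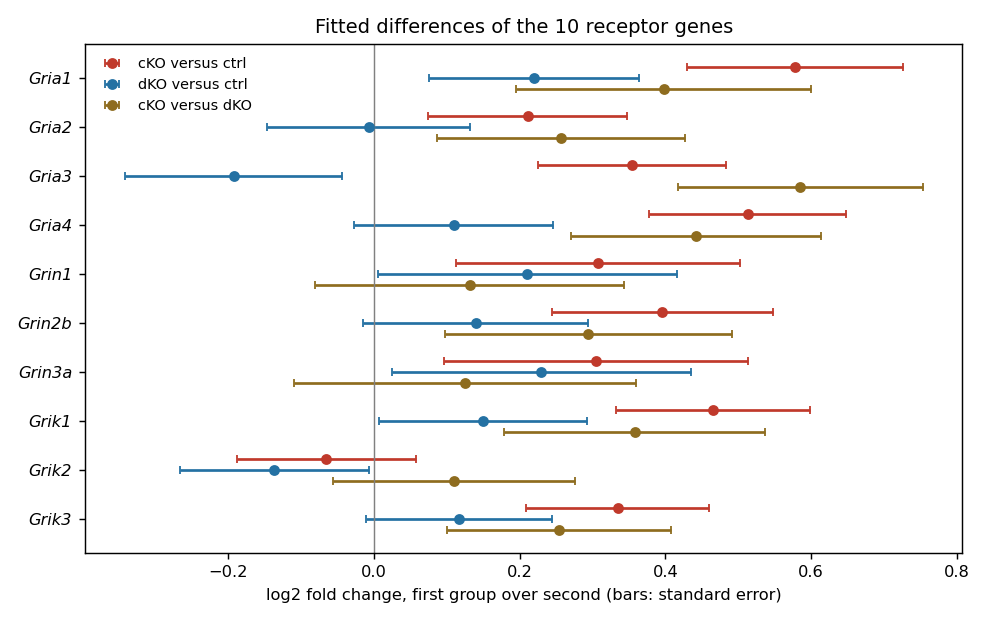
Fitted log2 fold changes of the 10 receptor genes, first group over second, in the 3 comparisons, with bars for the standard error. cKO versus ctrl values run from −0.07 (*Grik2*) to 0.58 (*Gria1*) and dKO versus ctrl values from −0.19 (*Gria3*) to 0.23 (*Grin3a*).

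The call for *Gria1* depended on the fit. With litter as a replicate block its log2 fold change was 0.37 (edgeR FDR of 0.516), and within batch 1, which held 3 cKO and 3 ctrl mice, it was 0.49 (FDR of 1). In batch 3, cKO mouse F3 exceeded 3 ctrl mice by 0.78 in mean log2 CPM. When each of the 11 mice was dropped in turn, the call remained in 3 fits, those without ctrl mouse 2, ctrl mouse 6 or cKO mouse S2. In the other 8, without cKO mouse 5, 7 or F3 or ctrl mouse S1, S3, T3, T4 or T5, the edgeR FDR was between 0.0708 and 0.575. Without cKO mouse S2 its log2 fold change was 0.73 (edgeR FDR of 5.99e-05), and *Gria4*, *Grin2b* and *Grik1* were then called as well, while the share of all genes called rose to 0.719%.

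Littermates were compared where a litter held 2 groups. With so few mice a side, the share of all genes that separate in the same way was not determined. The numbers of genes below are therefore a description only. In litter 1, the 2 cKO mice exceeded both ctrl mice in 7 of the 10 genes, and the difference of mean log2 CPM was 0.56 for *Gria1*, 0.57 for *Grik3*, 0.43 for *Gria4* and −0.11 for *Grin3a*. In litter 2, which held S2 and ctrl mice S1 and S3, S2 exceeded both in 5 of the 10 genes, led by *Gria3* with 0.33 and *Gria4* with 0.28, while *Gria1* differed by 0.15. Its ctrl littermate S3 was itself the lowest ctrl mouse in 6 of the 10 genes. In litter 3, dKO differed from ctrl by a median of −0.01 over the 10 genes, and both dKO mice lay below all 3 ctrl mice in *Gria3* (−0.52) and *Gria2* (−0.23). In litter 4, cKO mouse F3 exceeded both dKO mice in 8 of the 10 genes, by 0.48 for *Gria3*, 0.34 for *Gria4* and 0.28 for *Gria1*. Over all mice, *Gria3* was called in cKO versus dKO when F7 was left out (log2 fold change 0.76, edgeR FDR of 0.0186), where 0.0270% of all genes were called. The dKO mice of litters 3 and 4 also differed from each other, F7 being the highest dKO mouse in 7 and T8 the lowest in 6 of the 10 genes. Their depths differed too, at 552186 (T2) and 1023405 (T8) counts in litter 3 against 3519529 (F1) and 5396803 (F7) in litter 4. No litter held all 3 groups. All 4 dKO mice were in batch 3, together with 1 cKO mouse (F3), whereas the other 3 cKO mice were in batch 1, so that cKO versus dKO is largely also a comparison of batches. With batch as a covariate the log2 fold change in that comparison moved from 0.13 to 0.59 for *Grin3a*, from 0.25 to 0.05 for *Grik3* and from 0.59 to 0.67 for *Gria3* (edgeR FDR of 1 for each with the covariate).

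**Figure D4:**
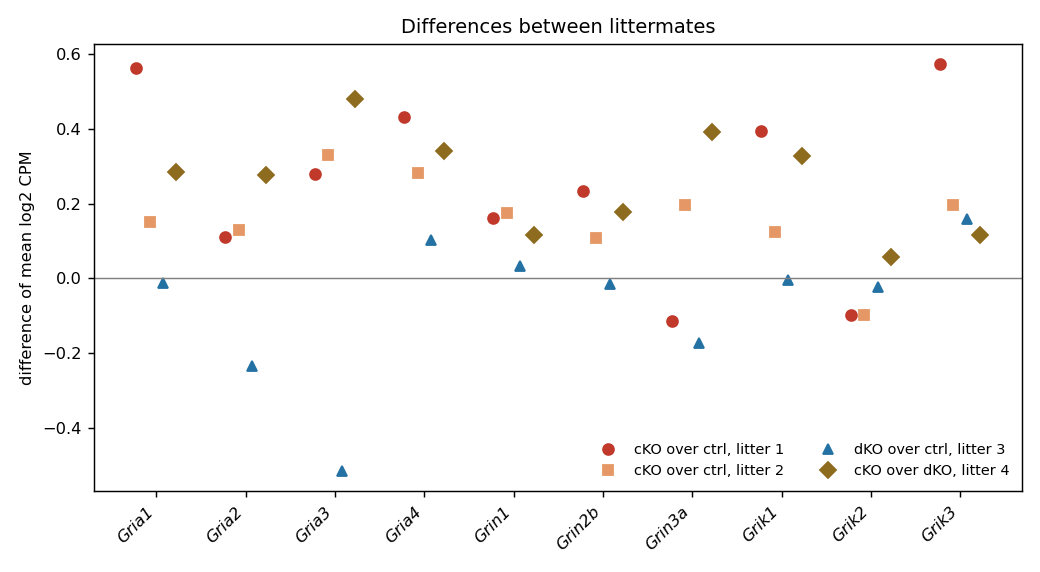
Differences of mean log2 CPM between littermates for the 10 receptor genes, as cKO over ctrl in litters 1 and 2, dKO over ctrl in litter 3 and cKO over dKO in litter 4, with 1 to 3 mice on each side. The points of cKO over ctrl lie above 0 for all genes except *Grik2* and, in litter 1, *Grin3a*, and the lowest point is *Gria3* in litter 3.

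Ratios of counts within a mouse do not depend on scaling between mice. The counts of *Gria1* per count of *Gria2* were 0.779 ± 0.0559 (SD, n = 7) in ctrl, 0.995 ± 0.116 (n = 4) in cKO and 0.903 ± 0.0657 (n = 4) in dKO. The lowest cKO ratio, 0.849, lay just inside the ctrl maximum of 0.864. Counts of *Gria3* per count of *Gria2* were 0.215 ± 0.0203 in cKO and 0.165 ± 0.0166 in dKO, and these ranges did not overlap. Here too, cKO versus dKO is largely also a comparison of batches. Among kainate genes, *Grik1* per count of *Grik2* was 0.145 to 0.223 in cKO and 0.109 to 0.142 in ctrl, without overlap, and *Grik3* per count of *Grik2* was 0.491 to 0.677 in cKO and 0.348 to 0.470 in ctrl, also without overlap. Counts of *Grin2b* per count of *Grin1* overlapped in all groups. As a share of the 4 AMPA genes per kb of gene span, *Gria1* made up 19.3% ± 0.897 in ctrl, 22.7% ± 1.95 in cKO and 21.7% ± 1.53 in dKO, and *Gria2* 65.2% ± 1.73, 60.2% ± 2.10 and 63.2% ± 0.900. In cKO the share of *Gria2* lay between 57.95% and 62.15%, below all ctrl values, which lay between 62.3% and 67.6%. How often ratios or shares of other genes separate groups in this way was not determined. The separations in this paragraph are therefore a description only. The size of these shares rests on dividing by gene span. Divided by total exon length, *Gria1* (103 CPM per kb) lay above *Gria2* (51.6) in ctrl.

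Markers of the cells in the tissue were compared between the same groups. The 17 interneuron markers, which include *Gad1*, *Erbb4* and *Nxph1*, summed to 4031 to 5766 CPM in cKO, above every ctrl (2652 to 3460) and dKO mouse (3041 to 3599). Their median log2 fold change was 0.43 in cKO versus ctrl and 0.11 in dKO versus ctrl, and the 3 markers named were called as higher in cKO. The paper had already reported these 3 as higher in cKO from the same data, so their sum is not independent evidence. Being unweighted, the sum also follows its most abundant genes. The 10 excitatory neuron markers summed to 4356 to 5465 CPM in cKO, 4035 to 4819 in ctrl and 3738 to 4761 in dKO, overlapping. The 5 intermediate progenitor markers summed to 73.1 to 130 CPM in cKO and 128 to 181 in ctrl, and 2 of them, *Eomes* and *Neurog2*, were called as lower in cKO. The 8 apical progenitor markers summed to 539 to 746 CPM in cKO and 425 to 948 in ctrl, and *Sox2* among them had no count in any mouse. It lies within another gene on the same strand, where reads cannot be assigned. The 6 ventral telencephalon markers summed to 601 to 1030 CPM in cKO and 242 to 733 in ctrl, and *Drd2* was called as higher in cKO. The lists for Cajal-Retzius cells, oligodendrocyte precursors, microglia, endothelium, choroid plexus and red blood cells overlapped between cKO and ctrl. Of these, *Ttr*, a choroid plexus gene, was called as lower in cKO than in ctrl and dKO, and *Hba-a2*, a red blood cell gene, as higher in dKO than in ctrl. With litter as a replicate block the calls of *Drd2* (edgeR FDR of 0.123), of *Hba-a2* (1) and of *Ttr* in cKO versus dKO (0.128) were lost. Of the 7 marker calls in cKO versus ctrl, between 1 (without cKO mouse 5) and 7 (without S2) remained when a mouse was left out, and *Eomes* remained in every alternative. It was the only 1 of the 7 left in batch 1 only and with wild-type ctrl only. RLE size factors and batch as a covariate each lost *Gad1* and *Erbb4*.

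Set against the summed interneuron markers, the levels of 9 receptor genes overlapped between cKO and ctrl, and *Grik2* did not. *Gria1* was at 0.156 to 0.249 CPM per CPM of these markers in cKO, 0.151 to 0.245 in ctrl and 0.154 to 0.259 in dKO. *Gria4* was at 0.107 to 0.133 in cKO and 0.102 to 0.146 in ctrl. *Grik2* was lower in cKO on this scale, at 0.264 to 0.328 against 0.419 to 0.489 in ctrl. The marker sums themselves were higher in every cKO mouse than in any ctrl mouse. A gene at similar CPM in both groups, as *Grik2* was, therefore falls lower on this scale, and nothing further is read from it. Against the excitatory neuron markers only *Gria4* did not overlap, at 0.0990 to 0.140 in cKO and 0.0747 to 0.0984 in ctrl. The other receptor genes overlapped on this scale too, *Gria1* being at 0.144 to 0.232 in cKO and 0.130 to 0.165 in ctrl. The share of all genes that overlap on either scale was not determined, so the scales are not set against each other. Whether the cell makeup accounts for any part of the receptor values was not tested.

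**Figure D5:**
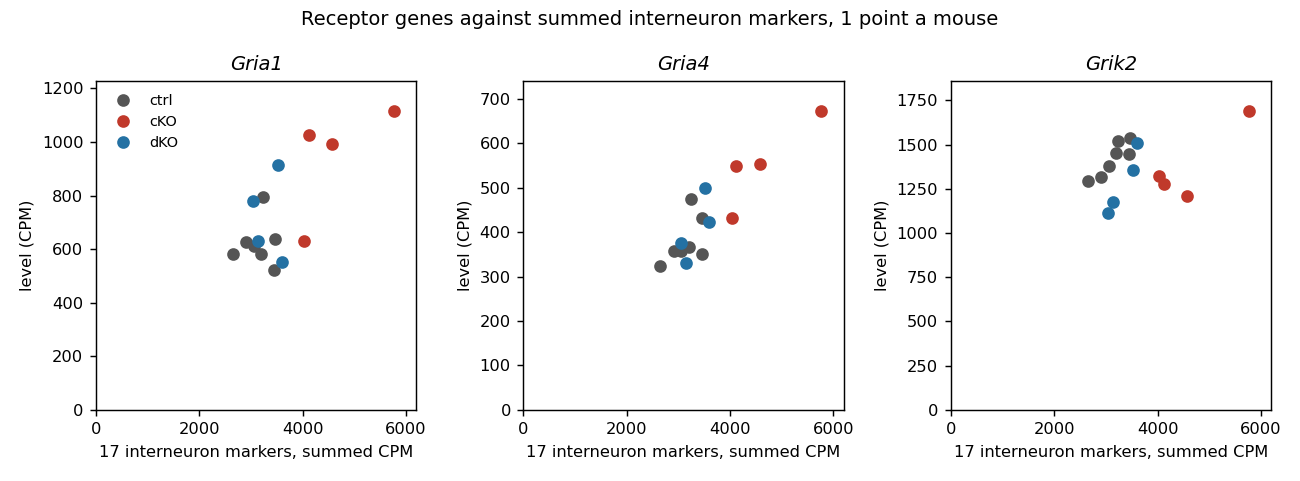
Levels of *Gria1*, *Gria4* and *Grik2* in CPM against the summed CPM of 17 interneuron markers, with 1 point a mouse and both axes from 0. The 4 cKO mice lie to the right of all others, with *Gria1* at 629 to 1116 CPM, and *Grik2* of 3 cKO mice lies within or below the ctrl values of 1296 to 1539 CPM.

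Genes that act with these subunits were described from lists. Of the 8 other ionotropic receptor genes, 0 were called in any of the 3 comparisons. *Grid1*, a delta receptor gene whose product binds cerebellins at synapses, differed by 0.33 (standard error 0.13) on the log2 scale in cKO versus ctrl, with an edgeR FDR of 0.581. *Grik4* (0.10), *Grik5* (0.18), *Grin2a* (0.27) and *Grin2d* (0.24) lay closer to 0 or were less precise. *Grin2c* and *Grin3b* were too low to compare, with at most 7 and 4 counts in a mouse.

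Of 17 auxiliary subunit genes, which control trafficking and gating of the receptors, 0 passed in cKO versus ctrl at an FDR of 0.05, 7 had an unadjusted p below 0.05, and the median log2 fold change was 0.23. In this comparison such p values were as frequent as 10.5% among all genes with at least 1 CPM and 24.1% among the long ones. The numbers given for cKO versus ctrl in this and the next lists stand against these shares. The 3 with the highest mean CPM over all mice were *Cacng4*, *Neto2* and *Shisa9*, whose log2 fold changes in this comparison were 0.22, 0.35 and 0.47. *Neto2*, a partner of kainate receptors, was at 190 ± 13.7 CPM in ctrl, 245 ± 28.3 in cKO and 199 ± 35.8 in dKO (cKO versus ctrl edgeR FDR of 0.349). Of 20 postsynaptic scaffold genes 0 passed and 10 had an unadjusted p below 0.05, with a median of 0.21. The 3 with the highest mean CPM were *Grip1*, which encodes a binding partner of AMPA subunits, *Dlg2* and *Dlgap1*, and they had log2 fold changes of 0.33, 0.52 and 0.49.

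Of 8 metabotropic glutamate receptor genes 0 passed in cKO versus ctrl and 3 had an unadjusted p below 0.05, and the median was 0.37. *Grm5*, the one with the highest mean CPM, was at 336 ± 66.3 CPM in ctrl and 516 ± 156 in cKO (log2 fold change 0.61, standard error 0.18, edgeR FDR of 0.149). *Grm7* and *Grm8* had values of 0.38 and 0.26. Of 7 glutamate transporter genes 0 passed, 2 had an unadjusted p below 0.05, and the median was −0.04. *Slc17a6*, the vesicular transporter of glutamate-releasing neurons, was at 88.2 ± 8.08 CPM in ctrl, 62.1 ± 12.9 in cKO and 63.2 ± 11.4 in dKO (log2 fold change −0.50 in cKO, standard error 0.15, edgeR FDR of 0.164). The glial transporters *Slc1a2* and *Slc1a3* had values of −0.04 and −0.31. Of 13 GABA-A receptor subunit genes 0 passed and 3 had an unadjusted p below 0.05, with a median of 0.27 and values of 0.12 for *Gabra2* and 0.54 for *Gabrb2*. In dKO versus ctrl and in cKO versus dKO, 0 genes of these lists passed, and 6 and 5 had an unadjusted p below 0.05. Of all genes with at least 1 CPM, 6.05% and 5.18% had such a p in these 2 comparisons, and of the long ones 7.01% and 8.14%. Without S2, 3 auxiliary, 6 scaffold, 3 metabotropic, 1 transporter and 3 GABA-A genes were called in cKO versus ctrl, in a fit that called 373 of all genes (0.719%) instead of 83. Of the RNA editing enzymes, *Adar*, *Adarb1* and *Adarb2*, 0 were called, and *Adarb1*, which edits the *Gria2* codon shown above, was at 50.3 ± 9.53 CPM in ctrl, 61.6 ± 7.55 in cKO and 66.3 ± 6.12 in dKO.

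Sex was not used to choose the genes. In a fit of all 15 mice with group as a covariate, 0 of the 10 genes differed between 7 female and 8 male mice at an FDR below 0.05, where 0.0173% of all genes were called, and 0 had an unadjusted p below 0.05. DESeq2 and the quasi-likelihood test also called 0. The X-linked *Gria3* was at 170 ± 32.5 CPM in females and 153 ± 37.2 in males (log2 fold change, female over male, 0.17, standard error 0.12, edgeR FDR of 1). The other 9 genes lay between −0.13 (*Grin3a*) and 0.05 (*Gria4*).

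Across the 15 mice, the genes most like *Gria1* in log2 CPM, of 4022 others with a mean of at least 50 CPM, were *Kirrel3* (Pearson r = 0.976, Spearman rho = 0.961), *Apba1* (0.967 and 0.968), *Xkr4* (0.963 and 0.936), *Brinp2* (0.954 and 0.964) and *Dlg2* (0.954 and 0.914). Among the members, *Grik1* (r = 0.951) ranked 11 and *Grin2b* (r = 0.940) ranked 17 by likeness to *Gria1*, ahead of *Gria4* (r = 0.869), *Gria2* (r = 0.868) and *Gria3* (r = 0.737). *Grik3* (r = 0.469) and *Grik2* (r = −0.02) were little like it. Genes most like *Gria2* were *Snap25* (r = 0.953, rho = 0.971), *Ank2* (0.948 and 0.968), *Slc8a1* (0.947 and 0.943), *Ptprd* (0.946 and 0.925) and *Rbfox1* (0.946 and 0.946). The mice share group, litter and batch, so these values describe likeness in this set of mice and carry no test.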

How the data were processed

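RNA was extracted from microdissected E15.5 cortices, depleted of ribosomal RNA and made into UMI libraries by Click-seq. The authors trimmed reads with cutadapt 1.13, aligned them to GRCm38/mm10 with STAR 2.5.2a, removed PCR copies by UMI with UMI-tools 0.5.3 and counted them with htseq-count 0.6.1p1 in intersection-nonempty mode. For each library, the authors deposited raw counts per gene, in which reads with the same UMI and position count once. The annotation release is not given in the sources used here, and 51719 of 51912 identifiers matched GENCODE mouse release 21, which gave symbols, positions and transcripts. Each mouse was used as 1 sample. The counts of libraries S2 and S2b (chi-square per degree of freedom 1.14, against 3.56 to 27.4 for other cKO pairs) were summed, and the 5 summary lines of each file were left out.

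Only the mice of the groups compared entered a fit, made with edgeR 4.0.16 under R 4.3.3 (TMM, estimateDisp, glmFit, glmLRT), without covariates and without a filter on low counts. FDR is Benjamini-Hochberg over all listed genes, and 95% intervals are the estimate ± 1.96 standard errors. Log2 CPM used a prior count of 2. The fits were tested on simulated data. Members, lists and tests were chosen with earlier results of these data known. The rule for named genes took all 18 receptor genes, and of each other pathway list the 3 with the highest mean CPM and any gene at an FDR below 0.05, of marker lists only the latter and genes without a count. Of the genes so chosen, 2 are not reported here. The 5 genes most like *Gria1* and *Gria2* are named by Pearson r. A count of 3 was between 0.341 and 7.50 CPM, and such limits cover counting error only. The alternatives were DESeq2 1.42.0, the quasi-likelihood test, RLE size factors, filterByExpr, all groups in 1 fit, batch or sex as covariates, litter as a replicate block, 1 batch only, wild-type ctrl only, either S2 library and each mouse left out. Dropping F1 and F7 and dividing by gene span were added after seeing the data. Plots used matplotlib 3.10.9.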

Additional observations from a re-analysis of the deposited data

Results flagged for a closer look

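In 3 of the 30 sets of values that were tested, 10 genes in 3 groups, 1 mouse lay far from the others of its group by Dixon's 95% limit, which chance alone flags in about 1 of 20 sets. *Gria1* in ctrl mouse 6 was at 793 CPM, above the other ctrl mice. Mouse 6 was also the deepest ctrl mouse, at 3266227 counts. *Grin2b* in cKO mouse S2 was at 1039 CPM, below the other cKO mice. *Grik3* in dKO mouse T2 was at 733 CPM, above the other dKO mice.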

How the results depend on the processing

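Of the results, the number of receptor genes called in cKO versus ctrl depended most on the processing. It was 1 in the fit reported, 4 with the quasi-likelihood F test, 2 with DESeq2, filterByExpr, sex as a covariate or library S2b only, and 0 with RLE size factors, all 3 groups in 1 fit, batch as a covariate, batch 1 only, wild-type ctrl only and litter as a replicate block. The number called over all 51912 genes moved as well. It was 83 in the fit reported, 352 with the quasi-likelihood F test, 144 with DESeq2 and 113 with sex as a covariate. With library S2b only it was 87, with RLE size factors 96, with all 3 groups in 1 fit 49 and with batch as a covariate 77. It was 13 in batch 1 only, 16 with wild-type ctrl only and 120 with the replicate block. The filterByExpr fit tested only 10992 genes and called 138 of them. The number of receptor genes called ran from 0 to 4 when each mouse was left out in turn. Over all genes it then ran from 17 (without cKO mouse 5) to 373 (without S2). The median log2 fold change of the 10 genes stayed above 0 in this comparison, from 0.22 with litter as a replicate block to 0.47 without S2. With the quasi-likelihood F test, 3 auxiliary, 5 scaffold, 3 metabotropic, 1 transporter and 3 GABA-A genes were called in cKO versus ctrl. DESeq2 called 3 scaffold genes and 1 transporter gene, and filterByExpr and library S2 only called 1 transporter gene each. With each mouse left out, the ranges were 0 to 3 auxiliary, 0 to 6 scaffold, 0 to 3 metabotropic, 0 to 1 transporter and 0 to 3 GABA-A genes. In dKO versus ctrl no alternative called a member, and the median of 0.13 became −0.0011 with litter as a replicate block and −0.10 without dKO mice F1 and F7, a choice made after seeing the data. It ran from −0.0093 without F7 to 0.19 with each mouse left out. In cKO versus dKO, 1 member (*Gria3*) was called with the quasi-likelihood F test, without F1 and F7, and in 1 of the 8 fits that left out a mouse, where the number ran from 0 to 1. Over all genes, 184 were called with the quasi-likelihood F test, 58 without F1 and F7 and 14 without F7 alone, against 27 in the fit reported. The median of the 10 genes in cKO versus dKO rose from 0.28 to 0.50 without F1 and F7. In dKO versus ctrl the replicate block lowered the number called over all genes from 26 to 4. Among the receptor genes and pathway lists it changed no call other than that of *Gria1*, and among the markers it lost 3 calls (*Drd2*, *Hba-a2* and *Ttr* in cKO versus dKO) and added *Gad2*, *Dlx1* and *Ebf1* in cKO versus ctrl and *Dlx5* in cKO versus dKO. The cause of these differences was not tested. Every ctrl mouse had a lower total than every cKO mouse, so depth and genotype cannot be told apart in cKO versus ctrl. Whether levels follow depth was not tested. The lower totals limit the precision of *Grin1* and *Grin3a* most, and a p that misses the threshold does not show that levels did not differ.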
